A study of Mus musculus with 5 samples.

Results

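HT22 is an immortalised mouse cell line derived from hippocampus, and its RNA-seq baseline was read from the 2 libraries of cells given a negative-control (NC) siRNA. The series holds 5 libraries of HT22 cells, all collected 48 h after transfection with 10 nM siRNA: 2 with the NC siRNA, 1 with GAS5 siRNA 210 and 2 with GAS5 siRNA 596. The sample labels describe the NC cells as untreated, whereas their titles read NC. The study's methods give NC as the negative-control siRNA, so these cells carried siRNA and transfection reagent and are not untransfected cells. HT22 cells grew in medium with 10% serum, the study's methods name no differentiation step, and a single immortalised line does not hold the mixture of cells of a hippocampus. Genes were taken as members of the baseline when they reached 1 CPM (counts of a gene per 1000000 counts of the library over all genes) in both NC libraries. This selected 12519 of the 55487 genes in the table. No comparison with the GAS5 siRNA libraries was made, and with 1 group there was no test between conditions.

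The hippocampus holds excitatory pyramidal and granule neurons, inhibitory interneurons, astrocytes, oligodendrocytes and microglia, and each of these is recognised by its own marker genes. A mature neuron carries transmitter receptors, voltage-gated channels and the machinery that releases synaptic vesicles, and it has left the cell cycle. A dividing culture of an immortalised line instead carries cyclins, DNA replication factors and mitotic kinases. HT22 is best known for oxytosis, a form of death in which extracellular glutamate blocks cystine uptake through the xCT transporter and empties the cell of glutathione, without a need for ionotropic glutamate receptors.

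The library totals were 33884066 counts for NC replicate 1 and 36492134 counts for NC replicate 2, so that 1 CPM stood for 33.9 and 36.5 counts. In all that follows, paired values are those of NC replicate 1 and then NC replicate 2. Counts of 3 or fewer in each library were treated as the floor. A gene at 0 may still be present at up to 0.0885 CPM in NC replicate 1 and 0.0822 CPM in NC replicate 2. This limit covers counting error alone and takes each count as an independent event. Among the counts from 1 to 10, 67.8% and 63.7% were even numbers, against 50.3% and 49.6% among the counts from 100 to 1000. How the mates of a read pair were counted was not given in the sources used here. Low counts may therefore not be independent, and the limit for a gene at 0 may be higher. The members held 99.7% of the counts of each library. Of the 21974 protein-coding genes, 11230 were members (51.1%), 7841 were at the floor and 2903 lay between. A share of 51.1% is therefore the background against which each gene list below is read.

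The 12519 members were mostly protein-coding genes, which made up 89.7% of them, followed by 486 processed pseudogenes and 539 genes of long non-coding RNA (lncRNA) biotypes. Levels were spread over a wide range, with a median of 36.2 CPM. There were 2974 members with a mean from 1 to under 10 CPM, 6869 from 10 to under 100 CPM, 2613 from 100 to under 1000 CPM and 63 at 1000 CPM or more. The counts were not dominated by a few genes: the 10 highest genes of each library held 4.39% and 3.89% of its counts, and it took 1212 and 1235 genes to reach 50% of them. At the lower edge, Alas2, the erythroid enzyme of heme synthesis, was just inside with 1.00 and 1.04 CPM, and Egfl7, a secreted protein of blood vessels, was just outside with 1.21 and 0.987 CPM.

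A property that the choice did not use, and in which members and genes at the floor lay apart, was the density of CG dinucleotides at their promoters. CG dinucleotides are depleted in most of the mouse genome and kept in CpG islands, which mark the promoters of many widely used genes and of many developmental regulators. RefSeq promoter windows of GRCm38.p6, each running from 250 bases before to 50 bases after a gene's start, were matched by symbol for 8904 of the 11230 protein-coding members and for 5567 of the 7841 protein-coding genes at the floor. The median ratio of observed to expected CG was 0.771 in the members (quartiles 0.601 and 0.911) and 0.215 at the floor (quartiles 0.101 and 0.424). A ratio of 0.6 or more was found in 75.2% of members, in 14.4% of genes at the floor and in 48.7% of all 16513 protein-coding genes with a window. Without the odorant, pheromone and bitter taste receptor genes, which are numerous and CG-poor, the median at the floor was 0.266. The letters TATAAA, searched on the gene's strand in the 50 bases before the start, were in 1.57% of member promoters, 6.84% of promoters at the floor and 3.69% of all. These are descriptions of the RefSeq starts, which need not be the starts used in HT22 cells.

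The CG ratio did not sort genes one by one, as 4 promoters show. They belong to the S100a6, Six3, Six6 and Cldn3 genes, and each has the highest RPKM (CPM per kilobase of exon, ties broken by name) among the genes of its list and state that have a single RefSeq start; the lists are those of fibroblasts, forebrain factors and epithelia. Capitals mark every CG in the 250 bases before the start, and each sequence is written 5′ to 3′ on the strand of the gene. S100a6, a calcium-binding protein of fibroblasts, stood at 896 and 834 CPM with only 3 CG in chr3:90612644-90612893 (+). Six3, a homeobox factor of the anterior forebrain and eye, stood at 21.3 and 21.9 CPM with 10 CG in chr17:85620584-85620833 (+). Six6, its relative in the eye field and pituitary, was at the floor with 0 and 1 counts although it had 17 CG in chr12:72939632-72939881 (+). Cldn3, a claudin of epithelial tight junctions, had 0 counts in both libraries and 9 CG in chr5:134985964-134986213 (+).
S100a6: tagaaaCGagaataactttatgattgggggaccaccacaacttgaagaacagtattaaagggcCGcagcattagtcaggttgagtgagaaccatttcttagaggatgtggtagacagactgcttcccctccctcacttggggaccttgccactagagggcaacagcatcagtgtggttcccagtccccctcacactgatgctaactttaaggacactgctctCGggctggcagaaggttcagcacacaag
Six3: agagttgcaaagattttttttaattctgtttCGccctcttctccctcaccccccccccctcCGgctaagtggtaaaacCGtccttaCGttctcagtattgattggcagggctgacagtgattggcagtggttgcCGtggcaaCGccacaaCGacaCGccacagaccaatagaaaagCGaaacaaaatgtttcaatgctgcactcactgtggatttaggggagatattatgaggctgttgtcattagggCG
Six6: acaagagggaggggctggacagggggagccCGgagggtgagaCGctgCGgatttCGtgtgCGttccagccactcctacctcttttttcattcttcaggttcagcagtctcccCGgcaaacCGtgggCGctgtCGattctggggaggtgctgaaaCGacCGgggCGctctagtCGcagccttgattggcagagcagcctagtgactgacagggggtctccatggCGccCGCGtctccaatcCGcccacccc
Cldn3: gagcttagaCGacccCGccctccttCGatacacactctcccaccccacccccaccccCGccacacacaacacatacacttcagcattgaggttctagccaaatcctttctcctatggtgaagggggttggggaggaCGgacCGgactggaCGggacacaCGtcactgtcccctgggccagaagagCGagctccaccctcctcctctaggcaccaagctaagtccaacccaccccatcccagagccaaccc
The CG ratio of the whole window was 0.329 for S100a6 and 0.747 for Six3, both members, and 0.689 for Six6 and 0.353 for Cldn3, both at the floor. Members had both the lowest and the highest of these 4 ratios. Among the genes of 6 lists described below (pan-neuronal, excitatory, inhibitory, synaptic vesicle, ionotropic glutamate receptor and GABA receptor genes), the 49 at the floor with a window had a median ratio of 0.662 and the 23 members had a median of 0.721, against 0.215 for all protein-coding genes at the floor.

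**Figure D1:**
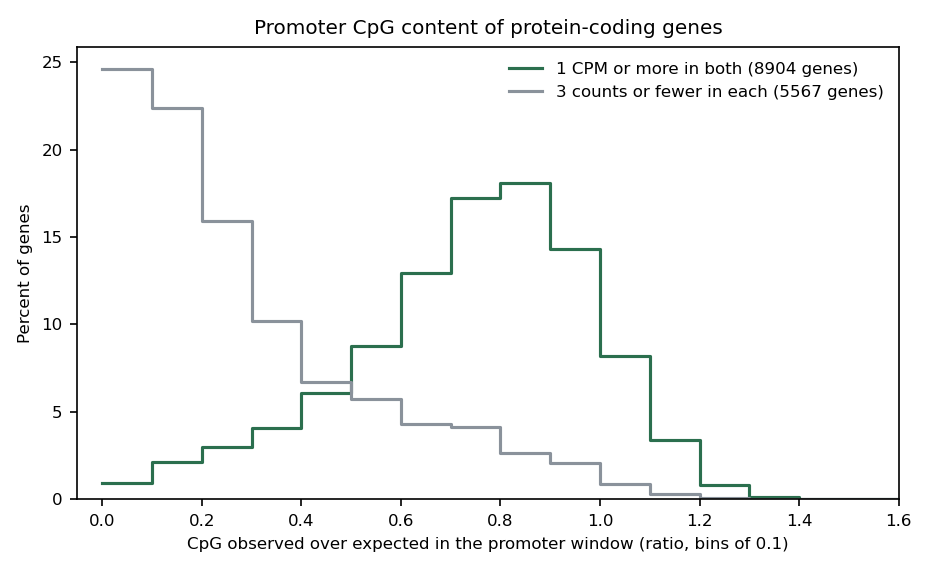
Distribution of the promoter CG ratio (x axis, observed over expected, in bins of 0.1; 1 gene above 1.6 is not shown) in percent of genes (y axis) for 8904 protein-coding members (green) and 5567 protein-coding genes at the floor (grey). The members centre on a median of 0.771 and the floor genes on 0.215, and the distributions overlap.

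The most abundant transcripts per length were those of translation, respiration and glycolysis. Levels between genes were compared in RPKM, that is CPM per kilobase of the gene's annotated exons. The highest protein-coding RPKM was that of mt-Co1, the mitochondrial subunit 1 of cytochrome oxidase, with 4559 and 3791 RPKM, followed by mt-Nd1 with 2415 and 2410.5 RPKM and Eef1a1, the elongation factor that brings tRNA to the ribosome, with 2448 and 2231 RPKM. The 20 highest genes also held 5 cytosolic ribosomal protein genes, led by Rplp1 with 1782 and 1814 RPKM. Gm23935, annotated as a miRNA gene of very short length, and CT010467.1, annotated as rRNA, were among the 20 as well. The level of Gm23935 per length, 6235 and 8314 RPKM, rests on 12042 and 17293 counts over a very short gene model. CT010467.1 stood at 1688 and 2550.1 CPM.

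Glycolytic enzymes formed a visible group at the top. Ldha, which turns pyruvate into lactate, reached 1167 and 876 RPKM, Pgk1, which makes ATP, reached 1220.3 and 785 RPKM, and Pkm, the pyruvate kinase, reached 949 and 731 RPKM. The 7 genes, Pkm, Eno1, Ldha, Pgk1, Tpi1, Aldoa and Pgam1, a group put together after their values were seen, summed to 20620 and 15150 CPM. Each of them was higher in NC replicate 1, by a ratio of 1.257 to 1.555. Gapdh, commonly used as a reference gene, was counted at 48.9 and 37.6 RPKM, below Pgk1, Pkm and Ldha. Gapdh has many near-identical processed copies in the mouse genome, and how reads with several mapped places were counted was not given in the sources used here, so its value is uncertain, as are those of the ribosomal protein genes. Actb, the cytoskeletal actin used as another reference, was at 2749 and 3021 CPM.

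By CPM alone, which favours long transcripts, the top 20 added the proteins of the extracellular matrix and cytoskeleton. Fn1, fibronectin, was the third highest gene by its mean, with 4632 and 4482 CPM, and Col1a1, the alpha chain of type I collagen, stood at 4056 and 4037 CPM. Col12a1, a collagen that decorates type I fibrils, had 1807 and 2302 CPM, and Vim, the intermediate filament of mesenchymal cells, had 2959.8 and 2679.5 CPM. Scd2, the fatty acid desaturase that is common in brain, was also in this group with 2556 and 2708 CPM. Hsp90ab1, a chaperone, was at 3413 and 3454 CPM. Mitochondrially encoded genes took 1.58% and 1.43% of the counts, cytosolic ribosomal protein genes 3.95% and 3.67%.

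Of the 11 cell type lists, that of fibroblasts and mesenchymal cells had the highest summed level. Of its 25 genes, 22 were members (88.0%, background 51.1%), 17 of these were above the median RPKM of protein-coding members (8.79 RPKM), and the list summed to 20050 and 21020 CPM, or 2.005% and 2.102% of all counts. Lgals1, the secreted lectin galectin of mesenchymal cells, led with 1539.9 and 1239 RPKM. Sparc, a matrix glycoprotein, had 479 and 543 RPKM, and Col6a1, of the pericellular collagen, had 107 and 135 RPKM. The receptors Pdgfrb, at 11 and 16.4 RPKM, and Pdgfra, at 4.49 and 3.28 RPKM, were members as well. Both libraries showed this set, but 3 of its members differed by more than 2-fold between them, each higher in NC replicate 2. Acta2, smooth muscle actin, had 141 and 285 CPM, Thbs1, thrombospondin, had 283 and 609 CPM, and Postn, the matrix protein periostin, had 2.48 and 6.99 CPM.

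Some textbook fibroblast genes were not members. Lum, the collagen-binding proteoglycan lumican, had 0 counts in both libraries, Dcn, its relative decorin, had 16 and 0 counts, and Tagln, a contractile marker, had 0 and 5 counts. S100a4, long used as a fibroblast marker, was a member at 3.66 and 3.67 CPM, and Postn, periostin, at 2.48 and 6.99 CPM. The library thus held the collagens, fibronectin and galectin of mesenchymal cells without the small leucine-rich proteoglycans on the list.

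Part of the listed transcription factors of mesenchyme were found beside these products. Of 20 genes, 13 were members (65.0%, background 51.1%). Only 5 of these were above the median RPKM of protein-coding members. Snai2, a repressor of epithelial genes, had 23.9 and 27.4 RPKM, Twist1, a factor of cranial mesenchyme, had 25.9 and 24.2 RPKM, and Prrx1, a homeobox factor of limb and head mesenchyme, had 20.2 and 20.1 RPKM. Foxf1 followed with 16.7 and 16.8 RPKM. Snai2, Twist1 and Prrx1 lay within a factor of 1.5 of each other, and Snai2 and Twist1 changed places between the libraries. Tcf21, Meox2, Msx2 and Tbx18, of the same list, had 0 counts in both libraries. Snai1, the relative of Snai2, had 44 and 17 counts and so reached 1 CPM in NC replicate 1 only.

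Against this mesenchymal background, HT22 cells expressed part of the set of factors that pattern the anterior forebrain. Of 20 such factors, 9 were members (45.0%), a share near the background of 51.1%, and 8 were at the floor. Pax6, a homeobox factor of cortical progenitors and eye, had 43.5 and 51.9 CPM. Lhx2, a selector of cortical identity, had 30.3 and 31.8 CPM, and Emx2, which patterns hippocampal cortex, had 9.24 and 7.1 CPM. These 3 factors were found in both libraries with differences between them of less than 1.5-fold.

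Several factors of later steps in the same lineage were missing. Neurod1, Neurod2 and Neurod6, the basic helix-loop-helix factors of maturing excitatory neurons, had 0 counts in both libraries, as did Prox1, a factor of dentate granule cells, and Emx1, of dorsal telencephalon. Otx2 and Nkx2-1, factors of neighbouring brain territories, also had 0 counts. Tbr1 had 3 and 15 counts and Eomes, a factor of intermediate progenitors, had 54 and 35 counts. Ventral factors were in part present at low levels: Dlx2 had 6.17 and 6.85 CPM, Dlx1 had 6.4 and 10.2 CPM and Lhx6, of interneurons born in the medial ganglionic eminence, had 12.1 and 13.5 CPM. The NC libraries therefore held dorsal and ventral forebrain factors side by side, and a bulk library cannot tell whether they were in the same cells, nor tell fewer cells of a type from less RNA per cell.

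Neural progenitor genes divided in a similar way. Of 15, 6 were members (40.0%). Nes, the intermediate filament nestin of neural stem cells, was the highest with 82.4 and 73.2 RPKM, far above Hes1, the Notch-responsive repressor, with 6.56 and 8.21 RPKM. Nestin is also made by other immature and cultured cells. Sox1, Sox2 and Sox3, the factors that hold neural progenitors in their state, had 0 counts in both libraries, and Hes5 and Prom1 had 0 as well. Among 20 Sox genes, the members were Sox4 with 22.6 and 16.4 RPKM, Sox9 with 11.1 and 8.24 RPKM, Sox12, Sox11 and Sox5. Sox4 and Sox11 are common in immature neurons and tumours, and Sox9 in glial progenitors and cartilage.

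**Figure D2:**
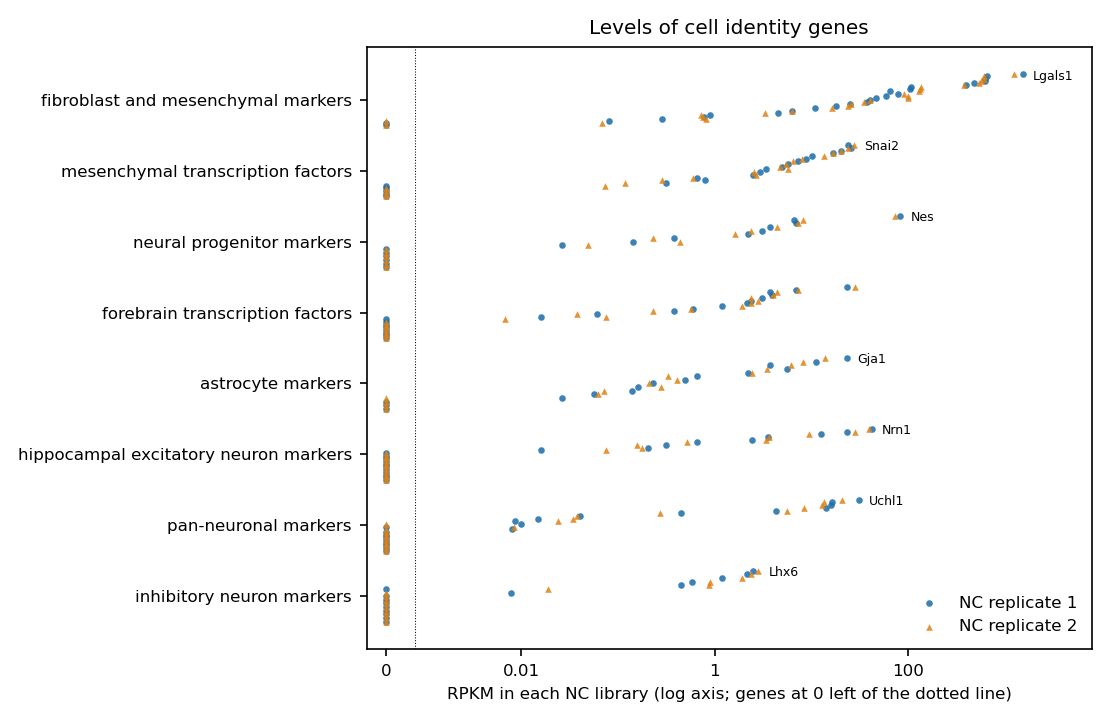
RPKM in each NC library (x axis, log scale; genes at 0 are placed left of the dotted line) for 8 lists of cell identity genes, with circles for NC replicate 1 and triangles for NC replicate 2, and genes of a list set in falling order from top to bottom; the highest gene is named for each list but the forebrain factors. Fibroblast genes reach 1539.9 and 1239 RPKM (Lgals1), while the neuronal lists do not pass the 42.1 and 39.2 RPKM of Nrn1 and hold many genes at 0.

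Although the line is labelled as hippocampal neuronal, most of the genes that define neurons were at the floor. Of 20 pan-neuronal markers, 6 were members (30.0%, background 51.1%) and 12 were at the floor. Rbfox3, which encodes the nuclear antigen NeuN, had 0 counts in both libraries, and so did Stmn2, Gap43, Dcx, Elavl4, Nefl, Nefm and Chga, which serve axon growth, neurofilaments, neuronal RNA binding and dense-core granules. The 6 members were Uchl1, a ubiquitin hydrolase, with 30.9 and 20.8 RPKM, Ncam1, a cell adhesion molecule, with 16.3 and 13.5 RPKM, Eno2, the neuronal enolase, with 16.1 and 12.8 RPKM, Tubb3, the neuronal beta-tubulin, with 14 and 8.41 RPKM, Map2 with 4.35 and 5.56 RPKM and Mapt, tau, with 0.443 and 0.269 RPKM. All but Mapt reached more than 4 RPKM in both libraries, so HT22 cells did carry several transcripts whose proteins are used to stain neurons. Tubb3 and Mapt were each over 1.5-fold higher in NC replicate 1.

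Markers of hippocampal excitatory neurons were members in 8 of 20 cases (40.0%). Nrn1, neuritin, a small surface protein induced by activity, was highest with 42.1 and 39.2 RPKM. Wfs1, a marker of the CA1 field in the hippocampus, had 12.6 and 9.54 RPKM, and Zbtb20, a transcriptional repressor that specifies hippocampal pyramidal identity, had 3.54 and 3.64 RPKM. Slc17a7, the vesicular glutamate transporter of cortical neurons, was a member at a low level, with 3.57 and 2.8 CPM. Camk2a, the kinase that is abundant at excitatory synapses, was near the threshold with 1.53 and 1.32 CPM. Calb1, Calb2, Bcl11b, Slc17a6, Grp and Lmo3 had 0 counts in both libraries. Of 15 inhibitory neuron markers, 5 were members (33.3%, background 51.1%), and all 5 were transcription factors. Slc32a1, the vesicular GABA transporter, Pvalb, Sst, Vip, Npy, Reln and Cck had 0 counts, and Gad1 had 2 and 0 counts.

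Repressors of neuronal genes were measured too, chosen after their values were seen. Rest, which silences neuronal genes in other cell types, had 96.8 and 98.4 CPM, and its cofactor Rcor1 had 126 and 128 CPM. Ptbp1, the splicing repressor of non-neuronal cells, had 83.2 and 93.3 RPKM, and Ptbp2, which replaces it in young neurons, had 4.08 and 4.52 RPKM. Whether they bear on the neuronal genes at the floor was not tested.

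Among the other cell types of brain, astrocyte markers were members at a share close to the background, and oligodendrocyte and microglial markers at lower shares. Of 15 astrocyte markers, 8 were members (53.3%, background 51.1%), led by Gja1, connexin 43, with 23.5 and 14 RPKM. Sox9, a factor of glial progenitors and cartilage, had 45.9 and 34.1 CPM, Slc4a4, a bicarbonate transporter, had 59.9 and 37.7 CPM and Fgfr3, a growth factor receptor, had 15.7 and 17.3 CPM. Other members lay close to the threshold: Nfia with 2.51 and 2.3 CPM, Acsbg1 with 2.39 and 1.18 CPM and Aldoc with 1.62 and 1.32 CPM. Gfap, the astrocyte filament, had 20 and 11 counts and Aqp4, the water channel of astrocyte endfeet, had 0 counts. Slc1a3, a glutamate transporter, was a member at 32.1 and 52.7 CPM, and Slc1a2, the main glutamate transporter of astrocytes, was below 1 CPM at 25 and 30 counts. The defining filament and water channel of astrocytes were thus below 1 CPM. Of 15 oligodendrocyte genes, 3 were members, among them Cspg4, the NG2 proteoglycan that pericytes and precursors share, with 199 and 182 CPM, and Cnp with 26.1 and 23.2 CPM. The lineage factors Olig1 and Olig2 and the myelin genes Mag and Mobp had 0 counts. Of 15 microglial genes, 2 were members, among them Tmem119 with 23.5 and 23.7 CPM. Ptprc, Itgam, Spi1 and the C1q genes, which define macrophages and microglia, had 0 counts in both libraries.

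Vessel and epithelial genes had few members. Of 12 endothelial genes, Flt1, a receptor for vascular growth factors, was the only member with 44.7 and 38.8 CPM, and Cldn5 had 0 counts. None of 14 epithelial genes was a member. Krt19, a keratin, came closest with 3.28 and 0.904 CPM, and Grhl2, a factor of epithelial cells, had 2.95 and 0.904 CPM, so that both passed 1 CPM in NC replicate 1 only. Epcam and Krt5 had 0 counts.

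**Figure D3:**
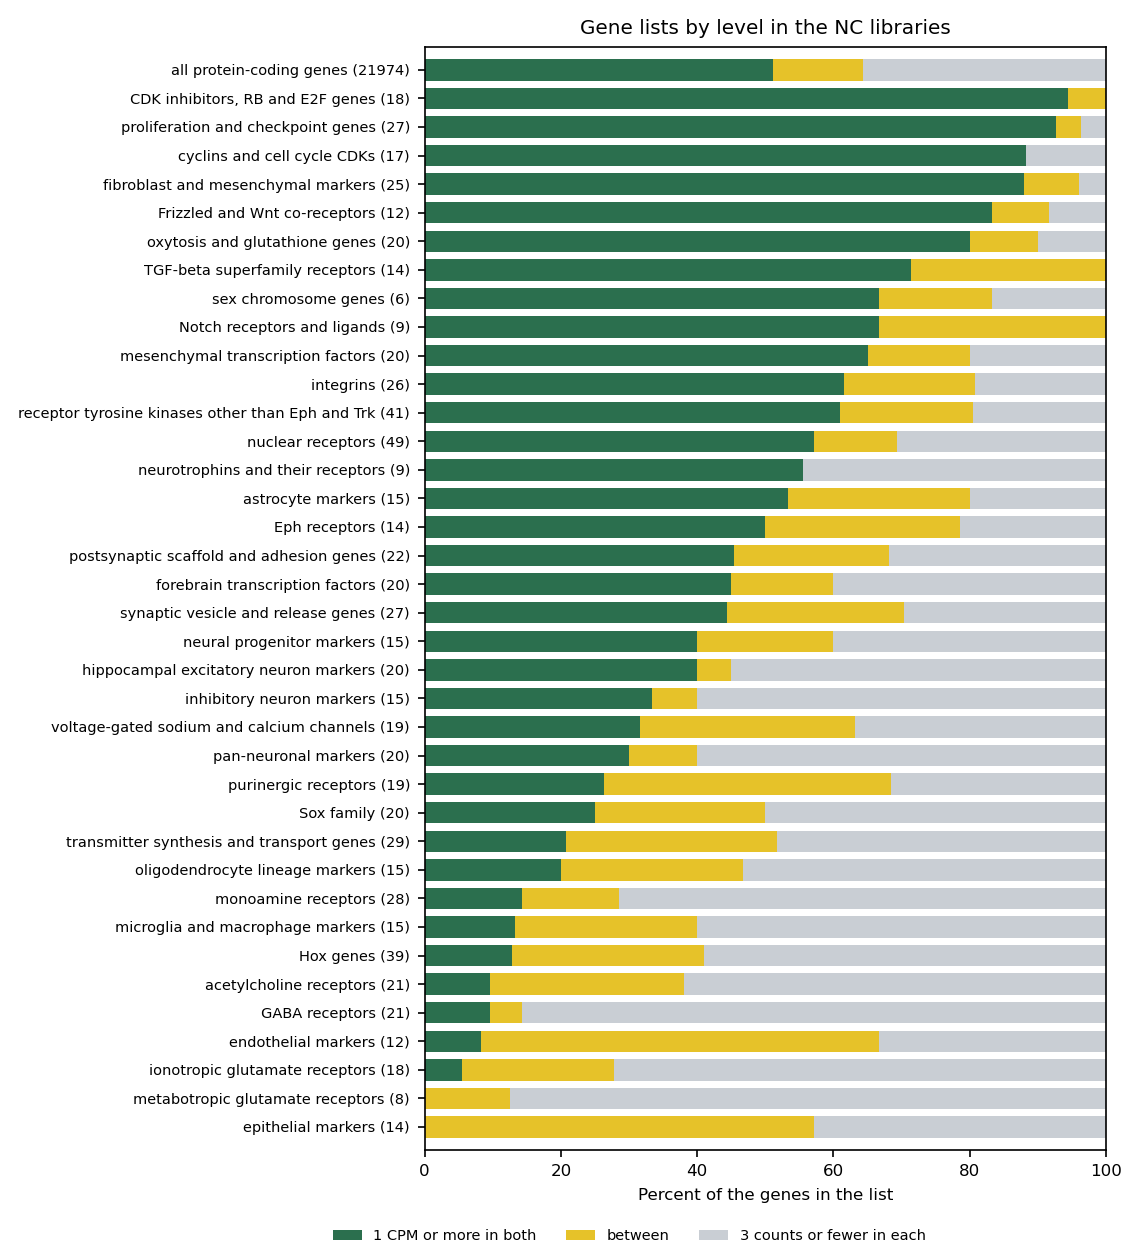
Stacked bars, in percent of the genes of each list (x axis), of genes at 1 CPM or more in both NC libraries (green), genes between (yellow) and genes with 3 counts or fewer in each library (grey), for 37 lists in falling order of the green share, with the number of genes in brackets and all 21974 protein-coding genes on top. The cell cycle and fibroblast lists have 88.0% or more of their genes in green, and the glutamate receptor and epithelial lists have under 6%.

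Most transmitter receptor genes were at the floor. Over 5 lists of receptors for glutamate, GABA, acetylcholine and monoamines, 9 of 96 genes were members (9.38%, background 51.1%) and 71 were at the floor. Over the other receptor lists, 107 of 184 genes were members (58.2%). All AMPA receptor subunit genes (Gria1, Gria2, Gria3 and Gria4) had 0 counts in both libraries. Grin1, the obligate subunit of NMDA receptors, had 0 and 2 counts, and Grin2a and Grin2b had 0. The only ionotropic glutamate receptor gene among the members was Grik5, a kainate receptor subunit that needs a partner subunit to form a channel, with 85.8 and 90.7 CPM. Grin3b, an NMDA receptor subunit, lay next to the threshold with 0.856 and 1.64 CPM, so that 2 genes of this list passed when NC replicate 2 was used alone, and 4 passed with at least 10 counts in both libraries as the threshold. The partners on the list, Grik1, Grik2 and Grik3, had 0 counts. Of 8 metabotropic glutamate receptor genes none was a member, and 7 had 0 counts in both libraries.

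The GABA receptor members were Gabbr1 with 62.8 and 66.4 CPM and Gabre with 32.3 and 29.6 CPM, whereas Gabbr2, the partner that Gabbr1 needs to reach the cell surface, had 2 and 0 counts. Acetylcholine receptors had the members Chrnb1 with 7.17 and 6.69 CPM and Chrnb2 with 1.36 and 1.81 CPM, and the muscarinic genes Chrm1 and Chrm2 had 0 counts. The monoamine receptor members were 4 adrenergic genes, among which Adra1b had 24.3 and 25.2 CPM, Adra1d 13.7 and 19 CPM and Adrb1 1.59 and 2.06 CPM. The dopamine receptor genes Drd1 and Drd2 had 0 counts. For the kainate and GABA-B types, which are built of several chains, a chain was thus a member while the partners named here were at the floor. Of 19 purinergic receptor genes, 5 were members (26.3%, background 51.1%). The highest were P2rx4, an ATP-gated channel, with 36.2 and 35.5 CPM, and P2rx7 with 26.2 and 19.7 CPM.

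Of 29 genes for the synthesis and transport of transmitters, 6 were members (20.7%, background 51.1%). Glul, glutamine synthetase, had 25.6 and 17.4 RPKM. Chat, for acetylcholine, had 0 counts, Th, for catecholamines, had 0 and 2 counts and Slc1a1, the neuronal glutamate transporter, had 0. Of 27 synaptic vesicle and release genes, 12 were members (44.4%), a share near the background. Vamp2, a vesicle SNARE, had 84.7 and 74.8 CPM. Snap25, the neuronal SNARE of the plasma membrane, had 0 counts, Syt1, the calcium sensor, had 4 and 0 counts and Syp, synaptophysin, had 12 and 5 counts. Sypl, the relative of Syp found in many tissues, was a member at 86.4 and 86.2 CPM.

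Of 22 postsynaptic scaffold and adhesion genes, 10 were members (45.5%). Nlgn2, an adhesion molecule of inhibitory synapses, had 27.5 and 27 RPKM, and Dlg1, a scaffold protein that many cell types use, had 16.7 and 14.6 RPKM. Dlg4, which encodes PSD-95, had 107 and 99.5 CPM. Nrxn3, Nlgn1 and Shank1 had 0 counts in both libraries. Of 19 sodium and calcium channel genes, 6 were members (31.6%, background 51.1%). The highest was Cacna1g, a low-voltage calcium channel, with 14.2 and 16.4 RPKM. Cacna1a followed with 4.73 and 5.24 RPKM. Among sodium channels, Scn8a had 10.6 and 19.5 CPM, Scn3a 10.5 and 4.8 CPM and Scn2a 7.47 and 8.55 CPM, all at under 1.3 RPKM.

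Receptors for matrix and growth factors made up the top of the receptor genes. Itgb1, the beta chain shared by most matrix-binding integrins, was highest with 202 and 192 RPKM, more than 2 times the level of any other receptor gene listed. Its partners Itga5, for fibronectin, with 63 and 63.2 RPKM, Itga3, for laminin, with 53.4 and 52.1 RPKM, and Itgav with 31.2 and 30.1 RPKM were members. Of 26 integrin genes, 16 were members (61.5%, background 51.1%). Axl, a kinase that binds the ligand Gas6, was the highest receptor tyrosine kinase with 77.3 and 79.1 RPKM, and Ryk, a Wnt receptor, had 49.6 and 51.2 RPKM. Ddr1 and Ddr2, which bind collagen, had 46.2 and 52 RPKM and 37.6 and 40.8 RPKM. Fgfr1 had 21.6 and 18.5 RPKM and Erbb2 16 and 19.7 RPKM. Of 41 receptor tyrosine kinase genes, 25 were members (61.0%), and Kit, Ret, Flt3, Flt4, Erbb4 and Ros1 had 0 counts in both libraries. Itga3, Itgb5, Ryk and Ddr1 each overlapped in value with the next in the order, so that their order is not set by these data.

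**Figure D4:**
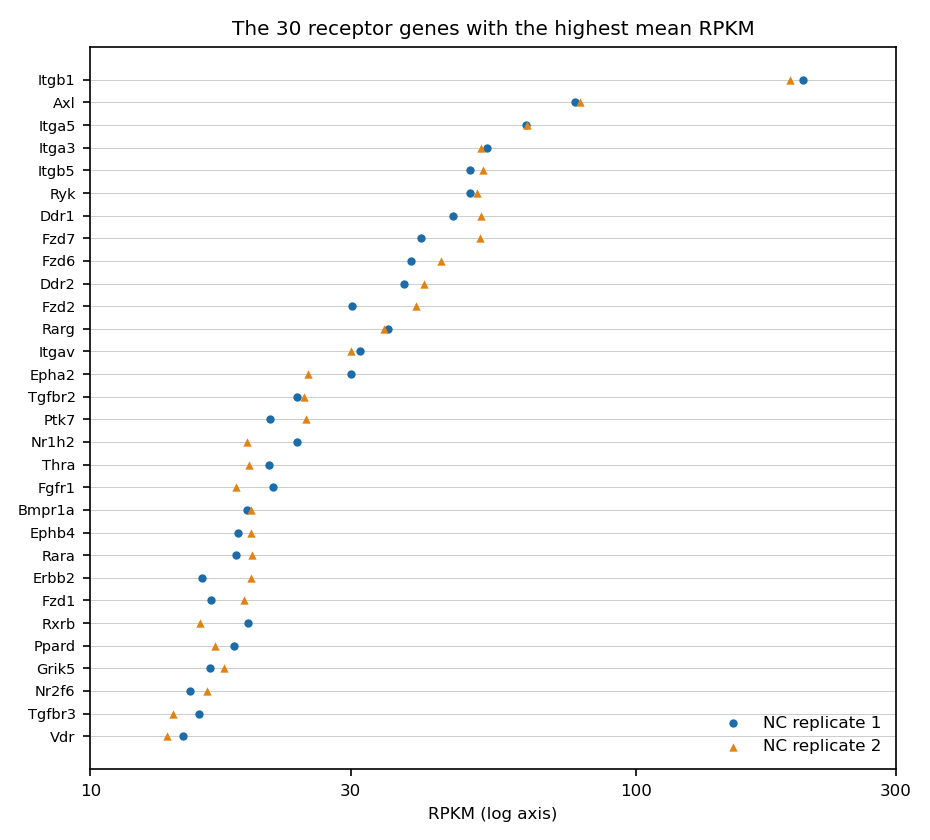
RPKM (x axis, log scale) of the 30 receptor genes with the highest mean, in NC replicate 1 (circles) and NC replicate 2 (triangles), sorted by the mean. Itgb1 stands apart at 202 and 192 RPKM, Axl follows at 77.3 and 79.1 RPKM, and Grik5 is the only transmitter receptor gene on the plot.

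Receptors of several developmental signals were members. Of 12 Frizzled and Wnt co-receptor genes, 10 were members (83.3%, background 51.1%). Fzd7, Fzd6 and Fzd2 had 40.3 and 51.8 RPKM, 38.7 and 43.9 RPKM and 30.2 and 39.6 RPKM. Of 14 receptors of the TGF-beta superfamily, 10 were members (71.4%), led by Tgfbr2 with 23.9 and 24.7 RPKM and Bmpr1a with 19.4 and 19.7 RPKM. Notch2 and Notch3 had 12.7 and 13 RPKM and 12.5 and 8.91 RPKM, and the ligand Jag1 had 5.37 and 10.3 RPKM. The Eph receptors, which sense ephrins at cell contacts, had 7 members of 14, a share near the background of 51.1%, and Epha2 was highest with 30.1 and 25.1 RPKM. Epha6 and Ephb1 had 0 counts.

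Neurotrophins support the survival of neurons through Trk receptors, and BDNF with its receptor is prominent in the hippocampus. Ntrk2, the receptor for BDNF, had 0 counts in both libraries, and so did Ngfr, the low-affinity receptor that neurotrophins share. Ntrk3, the receptor for neurotrophin 3, was just past the threshold with 68 and 46 counts, or 0.0665 and 0.0418 RPKM. The ligand gene Bdnf was a member at 27.9 and 33.8 CPM, as was the sorting receptor Sort1 at 46.3 and 46.3 CPM. RNA for this ligand was thus measured without detectable RNA for Ntrk2 or Ngfr at this depth.

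Nuclear receptors had 28 members of 49 genes (57.1%), a share near the background of 51.1%. Rarg, a retinoic acid receptor, was the highest with 35.2 and 34.6 RPKM, followed by Nr1h2, an oxysterol receptor, with 23.9 and 19.4 RPKM and Thra, a thyroid hormone receptor, with 21.3 and 19.5 RPKM. Nr3c1, the glucocorticoid receptor, had 93.3 and 86.9 CPM, while Nr3c2, the mineralocorticoid receptor that is abundant in hippocampal neurons, had 4 and 2 counts. Of the other steroid receptors, Esr1 had 6.64 and 6.96 CPM, and Pgr and Esr2 had 0 counts in both libraries.

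The cell cycle lists were nearly complete. Of 17 cyclin and CDK genes, 15 were members (88.2%), and only Ccna1 and Ccnb3, whose main known roles are in the germ line, had 0 counts. Cdk4 was the highest with 129 and 134 RPKM. Ccna2, the cyclin of S phase and G2, had 56.9 and 60.2 RPKM, and Ccnd1, a cyclin of G1, had 44.9 and 66.3 RPKM. Ccnd1 also differed most between the libraries among the cyclins and CDKs, at 212 and 312 CPM. Of 27 genes of proliferation and checkpoints, 25 were members (92.6%), and 23 of them were above the median of protein-coding members. Pcna, the sliding clamp of replication, had 145 and 154 RPKM, and Mcm5, a subunit of the replicative helicase, had 94.5 and 117 RPKM. Top2a and Mki67, both markers of dividing cells, had 953 and 867 CPM and 643 and 607 CPM. Trp53 was a member at 254 and 257 CPM and Mdm2 at 89.9 and 78.1 CPM. Myc had 112 and 80 CPM whereas Mycn had 0 counts.

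Inhibitors of the cycle were present together with its drivers. Of 18 CDK inhibitor, RB and E2F genes, 17 were members (94.4%). Cdkn2a, the locus of the p16 and p19 tumour suppressors, which share exons and cannot be told apart in a gene-level count, was the highest with 308 and 306 RPKM. It was above every cyclin and CDK gene on the list per length. Cdkn2c had 52.8 and 61.2 RPKM, Cdkn2b 20.8 and 24.1 RPKM and Cdkn1b 22.8 and 23.1 RPKM. Cdkn1a, which encodes p21, had 68.6 and 33.2 CPM and so was 2.07-fold higher in NC replicate 1. Rb1, the retinoblastoma gene, had 3.52 and 2.82 RPKM, below its relative Rbl1 at 16.6 and 15.1 RPKM. Cdkn1c had 10 and 7 counts.

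The genes of oxytosis and glutathione were members in 16 of 20 cases (80.0%). Gpx4, the peroxidase that detoxifies lipid hydroperoxides, had 155 and 137 RPKM, and Gpx1 had 125 and 138 RPKM. Slc3a2, the heavy chain that pairs with xCT, had 94.2 and 72.2 RPKM. This was many times the 3.32 and 2.09 RPKM of Slc7a11, which encodes xCT, the light chain that carries cystine. Slc3a2 also pairs with other amino acid transporters. Gclc and Gclm, the subunits of the enzyme that limits glutathione synthesis, had 72.4 and 66.5 CPM and 83.4 and 72.6 CPM. Aifm1 and Bid, which act at mitochondria in this death pathway, had 112 and 126 CPM and 35.5 and 50.9 CPM. The lipoxygenase genes were the missing part: Alox15 had 2 and 4 counts, Alox12 2 and 8 counts, Alox5 2 and 0 counts and Alox12b 0. Hmox1, heme oxygenase, and Tfrc, the transferrin receptor, differed between the libraries in opposite directions, with 415 and 131 CPM for Hmox1 and 131 and 374 CPM for Tfrc.

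Positional and chromosomal genes gave further marks of the line. Of 39 Hox genes, which pattern the trunk and hindbrain and are off in forebrain, 5 were members (12.8%, background 51.1%). The 5 were below 10 CPM, among them Hoxa5 with 7.17 and 9.54 CPM and Hoxb6 with 2.24 and 4.03 CPM. All 9 listed HoxD genes had 0 counts. The Y-linked genes Ddx3y, with 55.5 and 63.5 CPM, Eif2s3y, with 31.7 and 34.6 CPM, Uty and Kdm5d were members, and Xist, which silences an X chromosome in female cells, had 6 and 6 counts.

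Among lncRNA genes, Malat1 and Neat1, which stay in the nucleus, had the highest CPM with 1396 and 1486 CPM and 1082 and 959.9 CPM. AI506816 followed with 266 and 359 CPM. Cct6a and Zfp469, which carry an lncRNA biotype in GENCODE M21, are protein-coding in RefSeq and are not named as lncRNAs here, though they are in the counts by biotype. Gas5, the target of the study's other siRNAs, had 93.8 and 79.9 CPM. Tug1, an lncRNA that was named after its values were seen, had 93.6 and 98.5 CPM. Of 9911 genes with lncRNA biotypes, 539 were members (5.44%), and together these biotypes held 0.808% and 0.832% of the counts. The libraries were made from poly(A) RNA, and how fully lncRNAs without a poly(A) tail were captured is not known from these files.

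The NC libraries agreed closely over most genes and differed for a small set. Pearson's R2 over all 55487 genes was 0.973 on counts and 0.995 on log2(CPM + 1), where genes are not independent replicates. These genes include 30773 with 0 counts in both libraries. Over the 12519 members alone, R2 on log2(CPM + 1) was 0.982. Of the 12519 members, 177 (1.41%) differed by more than 2-fold, 112 of them lower and 65 higher in NC replicate 2, and the median absolute log2 difference was 0.15. At 10 CPM or more in both libraries, 31 of 9377 genes differed by more than 2-fold. Nos2, the inducible nitric oxide synthase, had 168 and 49.2 CPM, Prl2c2, a proliferin gene whose reads cannot be cleanly told from those of its near-identical copies, had 51.3 and 15.7 CPM, and Hmox1, named above, was the third of those lower in NC replicate 2. Hspd1-ps3, a processed copy whose reads may belong to Hspd1, and Fblim1, a protein of cell adhesions, came next. Ptgs2, cyclooxygenase, with 124 and 48.3 CPM, Gadd45a with 34 and 13.1 CPM and Atf3 with 45.5 and 17.8 CPM, named after their values were seen, were lower in NC replicate 2 as well.

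In the other direction, Tfrc led, followed by Isg15, an interferon-induced ubiquitin-like protein, with 31 and 83.8 CPM, Npr3, a natriuretic peptide receptor, with 28 and 70.9 CPM, Oasl2 with 16.3 and 38.8 CPM and Ifih1, a sensor of double-stranded RNA, with 15.4 and 35.2 CPM. Of these 5 genes, 3 are known as interferon-induced (Isg15, Oasl2 and Ifih1). With 1 pair of libraries, these differences cannot be tested, and whether the libraries came from separate cultures was not given in the sources used here. They include the levels of Hmox1, Tfrc, Cdkn1a, Acta2 and Thbs1 given above, whose values in the NC libraries were all over 2-fold apart.

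**Figure D5:**
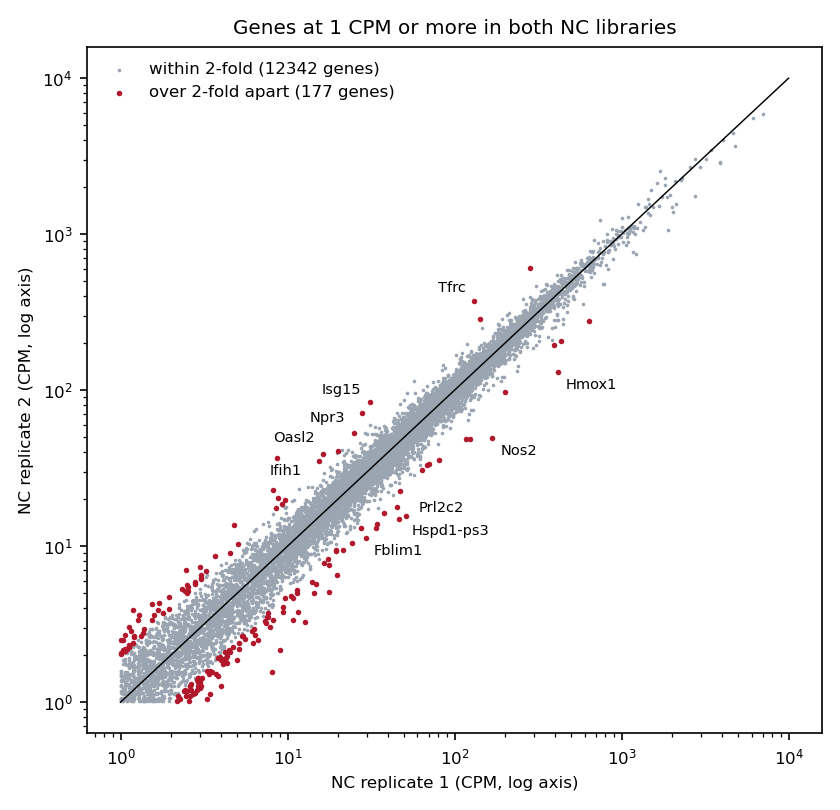
CPM of each of the 12519 members in NC replicate 1 (x axis) and NC replicate 2 (y axis), both on log axes, with the line of equal values. The 177 genes that differ by more than 2-fold are red, most of them at low levels, and the 5 with the largest difference in each direction among genes at 10 CPM or more in both are named.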

How the data were processed

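RNA-seq of HT22 cells was read from the counts deposited by the authors, whole numbers of reads per gene without normalization, made after trimming with Trimmomatic by alignment with HISAT2 2.1.0 to GRCm38, sorting with SAMtools 1.7 and counting with featureCounts 2.0.1 on Ensembl release 101 (versions from the submitters' processing notes). Libraries were made from poly(A) RNA. The strand setting and the handling of reads with several mapped places are not given in the sources used here. A second deposited table holds the authors' DESeq2 comparison of GAS5 knockdown with NC and was not used.

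Each NC library was scaled by its total over genes (33884066 and 36492134 counts) to CPM, and CPM was divided by the union of annotated exons in kilobases for RPKM. Symbols, biotypes and lengths came from GENCODE M21 on GRCm38, which named 55227 of 55487 identifiers. Members had at least 1 CPM in both NC libraries, the floor was 3 counts or fewer in each, and no test was run because there is 1 group of 2 libraries. Intervals and floors cover counting error only. Gene names in the text follow a rule: the 20 highest genes by RPKM and by CPM, up to 5 highest members and the floor genes of each list, the 10 highest lncRNAs and receptors, Gas5, Gapdh, Actb, Cdkn1a and Cdkn2a, and the 5 genes in each direction that differ most between the libraries at 10 CPM or more. Some genes that the rule names are not reported here. Other genes named in the text were chosen after their values were seen. Members and lists were chosen with earlier results of these data known. Alternatives changed the threshold, the library size (TMM of edgeR 4.0.16 in R 4.3.3), the length and the library used. Scripts were tested on simulated data. Promoter windows are from RefSeq on GRCm38.p6. The analysis ran in Python 3.11.15 with pandas 2.3.3 and matplotlib 3.10.9.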

Additional observations from a re-analysis of the deposited data

How the results depend on the processing

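The baseline rests on 2 libraries, and the choices below move genes near 1 CPM. The count of 12519 members and the total over the lists stayed within 1.5 times under every alternative tried. At 5 CPM, 5 hippocampal excitatory, 3 inhibitory and 5 astrocyte markers were members. At 0.5 CPM, 3 endothelial and 2 epithelial markers were members, and at 1 TPM 2 epithelial markers were. With at least 10 counts in both libraries, 5 oligodendrocyte, 3 endothelial and 3 epithelial markers were members. With totals taken without mitochondrial genes, 2 endothelial markers were members. Using 1 library alone gave 1 to 3 endothelial and 0 to 2 epithelial markers. For the 26 other lists, 196 of 208 counts stayed within 1.5 times. Pearson's R2 of 0.973 on counts of all genes was 0.995 on log2(CPM + 1). For members only it was 0.970 on counts and 0.982 on log2(CPM + 1). The median CG ratio of the members was 0.807 with each gene's highest start, an alternative chosen after seeing the data. No paired analysis was possible because only the NC libraries entered. Depth limits statements on genes under 1 CPM, where counts are few.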

Other observations

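Families gathered by gene symbol after the values had been seen gave further descriptions. The background share of members over protein-coding genes was 51.1%. Among guidance genes of axons and vessels, 16 of 20 semaphorin genes (80.0%), 7 of 8 ephrin genes (87.5%) and 6 of 9 plexin genes (66.7%) were members. Of 16 genes for netrins, slits and their receptors, 6 were members (37.5%), a share below the background. Sema3c, a secreted guidance cue, had 83.2 and 65.3 RPKM, and Plxnb2, a receptor for semaphorins, had 85.1 and 89.9 RPKM. Ntn1, netrin, and its receptor Unc5b had 42.6 and 50.5 RPKM and 34.4 and 45.1 RPKM. Of 44 chemokine genes, only 11 were members, a share that was also below the background. These members included Ccl2, which attracts monocytes, at 97.6 and 86 RPKM, Ccl7 at 82.1 and 61.1 RPKM and Cxcl12 at 31.2 and 32.2 RPKM. Of 12 Toll-like receptor genes, 5 were members (41.7%), including Tlr3, a sensor of double-stranded RNA, at 16 and 16.8 CPM.

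Regulators of development gave a mixed picture. Of 6 sine oculis homeobox genes, 5 were members (83.3%, background 51.1%), and Six2, a factor of head mesenchyme and kidney, had 14.8 and 20.7 RPKM. All 4 Tead genes, the partners of Yap, and all 4 Id genes, which block helix-loop-helix factors, were members, with Id3 at 115 and 168 RPKM and Tead1 at 17.8 and 19.6 RPKM. Of 7 Neurod and Neurog genes 0 were members and 6 were at the floor. Of 15 POU genes, Pou2f1 was the only member. Of 94 potassium channel genes, 13 were members (13.8%) and 56 were at the floor. Cdh2, the cadherin of neural and mesenchymal cells, had 9.06 and 8.97 RPKM among 5 members of 23 cadherin genes (21.7%). Odorant receptor genes served as a check of background: 1 of 1135 was a member, Olfr1355 with 1.36 and 1.45 CPM, and 1106 were at the floor.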
